A study of Arabidopsis thaliana with 6 samples.

Results

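Short introns that annotated transcripts of Arabidopsis thaliana either keep or remove were compared between Col wild-type plants (WT) and the gemin2 mutant. A row of the splicing bin table was taken when its event was intron retention (IR) and its width was under 100 bp. A bin is a stretch of a gene that some annotated transcripts hold as exon and others splice out. The rule gave 1193 of the 7973 bins, in 1114 loci, and 71 loci held more than 1 of them. All bins of a locus share its gene count, so they are not independent. Widths ran from 2 to 99 bp with a median of 83 bp.

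Polyadenylated RNA was sequenced from whole 9-day-old seedlings of the Col ecotype, raised on Murashige and Skoog agarose at 22 °C in constant light, with 3 libraries of WT and 3 of gemin2. The authors' table names the allele gemin2-1, no transgene is named, and seedlings pool root and shoot. Whether libraries of the same genotype were grown as separate cultures is not stated, so the p-values reflect how far these samples scatter, and that scatter may be technical. In such bulk samples, fewer cells of a type and less RNA per cell cannot be told apart. Library letters A, B and C are those of the deposited columns, and no label says whether they pair libraries across genotypes.

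GEMIN2 is a partner of SMN in the complex that helps Sm proteins assemble on spliceosomal snRNAs. The snRNPs built in this way recognise the 5′ splice site, the branch point and the 3′ splice site of an intron. Plant introns are mostly short and AU-rich and are recognised across the intron. Retention is the most frequent form of alternative splicing in plants. A retained intron that brings a stop codon into the reading frame can expose the transcript to nonsense-mediated decay, while one in an untranslated leader leaves the protein sequence as it is.

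The sequences of 8 introns between coding exons show what is read in these bins and are given on the gene's strand from the RefSeq TAIR10.1 genome. The first 4 belong to bins that were higher in gemin2 and the last 4 to bins that were lower. Capitals mark the first stop codon in the frame of the upstream exon, and a sequence in lower case throughout has none.
ERD15 E006, chr2:17270076-17270162, plus strand: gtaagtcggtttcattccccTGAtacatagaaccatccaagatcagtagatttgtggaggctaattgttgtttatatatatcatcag
AT2G04039 E004, chr2:1333704-1333777, plus strand: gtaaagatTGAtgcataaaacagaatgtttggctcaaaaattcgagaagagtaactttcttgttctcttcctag
PETC E003, chr4:1440347-1440437, plus strand: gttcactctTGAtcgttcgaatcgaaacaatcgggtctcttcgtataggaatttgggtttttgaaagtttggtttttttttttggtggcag
FD-GOGAT E003, chr5:1130307-1130384, plus strand: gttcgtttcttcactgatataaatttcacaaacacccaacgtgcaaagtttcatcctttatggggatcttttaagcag
RSH1 E024, chr4:990663-990748, plus strand: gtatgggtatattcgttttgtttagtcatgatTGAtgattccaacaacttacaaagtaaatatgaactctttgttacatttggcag
DiT1 E002, chr5:4059851-4059930, minus strand: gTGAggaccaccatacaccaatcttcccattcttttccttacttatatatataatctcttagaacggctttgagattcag
AT5G46390 E010, chr5:18818501-18818591, plus strand: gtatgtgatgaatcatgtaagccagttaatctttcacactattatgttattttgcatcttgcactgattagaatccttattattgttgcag
AT3G26085 E007, chr3:9531043-9531129, plus strand: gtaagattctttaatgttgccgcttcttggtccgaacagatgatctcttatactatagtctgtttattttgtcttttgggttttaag

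Of the 12 higher bins named by rule, 7 lie outside the coding sequence, and for such bins only the last 3 exon bases and the first 6 intron bases, in capitals, are given. They are shown because the 5′ splice site is where the spliceosome first pairs with an intron. The first 7 sites are those of these higher bins, the site of CBP20, a higher bin named through a gene list, follows, and the last 3 belong to bins lower in gemin2.
ATBBD1 E002, chr1:28281709-28281783, minus strand: gagGTAAGG
iPGAM2 E010, chr3:2611240-2611329, minus strand: ctgGTAAGC
RPS5A E005, chr3:3779357-3779441, minus strand: cagGTGATC
AT1G10390 E014, chr1:3412609-3412707, minus strand: cagGTTCCA
SNF7.1 E004, chr4:14380877-14380965, plus strand: gagGTATTT
SUO E002, chr3:17733984-17734063, minus strand: tggGTGAGT
AT5G04830 E007, chr5:1403674-1403770, minus strand: cagGTTCGT
CBP20 E009, chr5:17803901-17803995, minus strand: agtGTAAGT
AT5G25280 E003, chr5:8775068-8775164, plus strand: cagGTATGT
AT2G25730 E003, chr2:10956621-10956704, minus strand: gagGTATAC
ARP1 E016, chr1:16268681-16268744, plus strand: tctGTTGCT

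The libraries held 14049163 to 17217408 gene reads each. GEMIN2 itself (AT1G54380, chr1:20297965-20300908) was counted 239, 262 and 221 times in the WT libraries and 71, 77 and 74 times in the mutant, a log2 change of −1.82 ± 0.0968 (SE; edgeR adjusted p = 4.46e-09 over all genes), so the libraries match their labels. Leaf genes (LHCB2.1, RBCS1A and RCA) and root genes (PYK10, IRT1, EXP7 and RHD6) had reads in every library, as whole plants should. Raw counts of some did not overlap between genotypes. Of the root genes, IRT1 had 4367 to 5624 reads in WT and 3007 to 3870 in gemin2, RHD6 35 to 43 and 15 to 25, and EXP7 73 to 101 and 63 to 71. The leaf genes were split: LHCB2.1 was higher in gemin2 (20927 to 29826 in WT, 34299 to 42146 in gemin2) and RCA lower (122207 to 149179 and 112257 to 119161). Counts of RBCS1A and PYK10 overlapped. These counts are not scaled for depth, and 36.7% of all tested genes were called on scaled counts. The part of organ proportions in the bin results was not tested. The seed storage gene CRA1 ranged from 6 to 163 reads and the oleosin gene OLEO2 from 3 to 19, high and low in both genotypes.

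Reads in the short IR bins came to 3876, 3914 and 4037 CPM of all gene reads in WT and to 4000, 4062 and 4006 CPM in gemin2. The ranges of the genotypes overlapped. Between 915 and 957 bins had a read in a given library, and 106 had none in any. A read counted in a bin does not have to lie within it: the reads per base in the tested bins had a median of 152% of that of the gene in WT and 168% in gemin2, above what retention of every intron could give. Levels are therefore given as reads of the bin per 100 reads of its gene, are compared between genotypes for the same bin, and are not read as the share of transcripts that keep the intron.

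Bins with enough reads for a test numbered 627, in 606 loci; the other 566 were too low. Relative to the gene, 47 bins in 47 loci passed an adjusted p of 0.05 (7.50% of those tested), 36 of them higher in gemin2 and 11 lower. Among all tested bins of every event type, 4.71% passed, 2.6% higher and 2.11% lower. Of the 36 higher bins, 14 entered the test through their gemin2 reads alone, and 4 of the 11 lower bins entered through their WT reads alone. The 14 include the bins of ATBBD1, GIL1, AT1G10390, SUO, FD-GOGAT, CIPK3 and CBP20 described below. The 4 are those of AT5G25280, RSH1, ABF3 and AtbZIP63. All 18 were kept by the genotype in which they were higher, so their p-values are not free of that choice. Among the 475 bins that had enough reads in each genotype, 22 were higher and 7 lower. The same split was not made over all event types, so these 2 counts have no background share beside them.

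The median bin differed little between the genotypes. The median log2 change of the tested short bins was 0.036, against −0.0021 over all tested bins, with 346 positive and 281 negative values. Within the bins that passed, the median was 2.04 for the higher ones and −1.04 for the lower ones. At least a doubling (log2 change of 1) was seen in 28 of the 36 higher bins and 19 of them passed a log2 change of 2, while 6 of the 11 lower bins fell by at least 1 on that scale and 2 by at least 2. The 3 libraries of a genotype did not overlap with those of the other in 155 of the 627 bins (24.7%, 89 higher and 66 lower). All 47 that passed were among them. The share was 18.9% of all tested bins and 25.1% of IR bins of 100 bp or more.

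**Figure D1:**
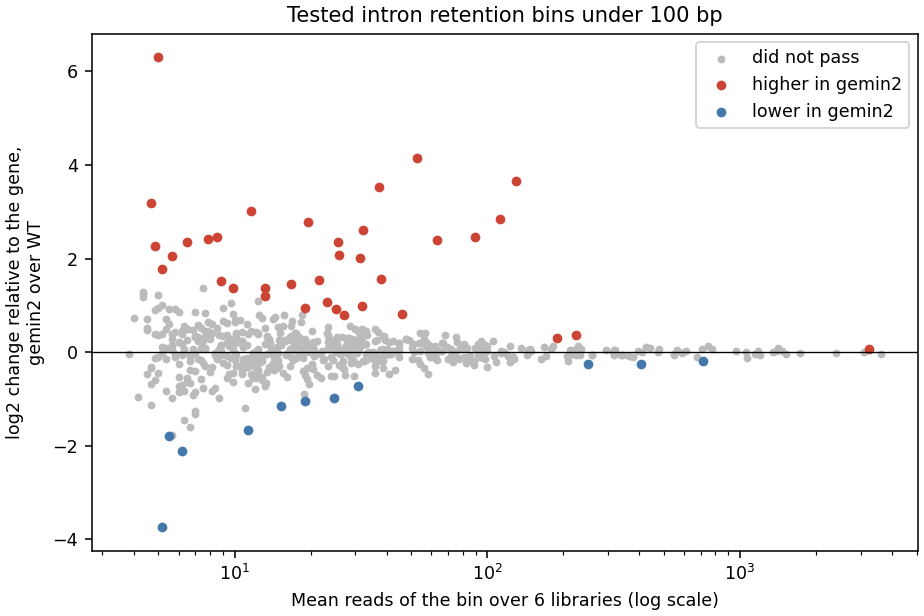
Log2 change of each tested short intron retention bin relative to its gene, gemin2 over WT, against its mean reads over the 6 libraries on a log axis; coloured points passed an adjusted p of 0.05. Higher bins with over 100 mean reads changed by 0.08 (ACSF) to 3.66 (RPT2, 129.5 mean reads), and the lower ones by −0.26 to −0.18.

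The other event types give the setting for the 36 higher and 11 lower bins, with no test between types. IR bins of 100 bp or more had 24 higher and 23 lower bins of 650 tested (7.23% passed), with a median change of −0.015. Skipped exon bins had 9 higher and 20 lower of 425, alternative 5′ splice site bins 21 and 4 of 692, alternative 3′ splice site bins 6 and 14 of 1478, and bins of several types 25 and 26 of 777. Within the short bins, 1 of 71 tested bins under 40 bp passed and 3 of 93 from 40 to 69 bp. In the classes of 70 to 79, 80 to 89 and 90 to 99 bp, 11 of 131, 19 of 185 and 13 of 147 passed. Around the width limit, 6 of 69 bins of 95 to 99 bp passed, and 2 of 51 bins that exceed 99 bp by at most 5 bp.

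**Figure D2:**
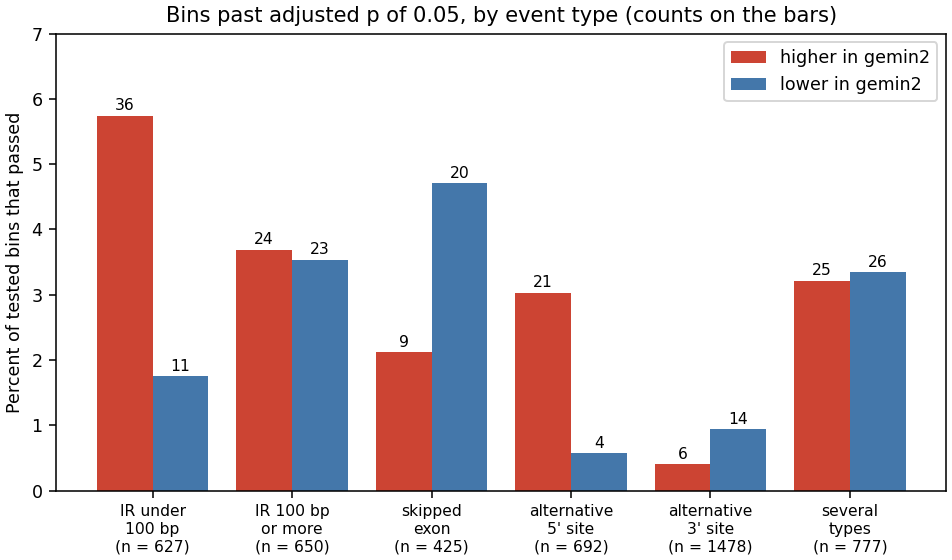
Percent of tested bins past an adjusted p of 0.05 for each annotated event type, split into higher (red) and lower (blue) in gemin2, with counts on the bars and tested bins as n. Short intron retention bins show 36 higher against 11 lower; intron retention bins of 100 bp or more show 24 against 23.

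ATBBD1 and RPT2 carried the largest increases among bins with a mean of 10 or more reads. ATBBD1 (AT1G75380), a bifunctional nuclease of basal defence, had 6, 4 and 5 reads in bin E002 in WT and 99, 107 and 94 in gemin2. Its level went from 0.166 ± 0.0439 to 2.94 ± 0.103 reads per 100 gene reads (SD, n = 3). The log2 change was 4.14 ± 0.217 (SE; edgeR quasi-likelihood test, adjusted p = 5.15e-18) in a bin tested through its gemin2 reads alone, and the gene itself differed by 0.03. RPT2 (AT2G30520, chr2:13005420-13005502), an NPH3-family protein that acts with phototropins in bending towards light, had 15, 17 and 11 reads in bin E005 in WT and 229, 253 and 252 in gemin2. Every gemin2 library of these bins lay far above every WT library. The RPT2 bin went from 0.272 ± 0.0442 to 3.46 ± 0.123 per 100 gene reads, 3.66 ± 0.147 on the log2 scale (adjusted p = 9.78e-22), while RPT2 as a gene rose by 0.31. GIL1 (AT5G58960, chr5:23806779-23806862), needed for the loss of gravitropic growth of hypocotyls in light, had 3, 1 and 5 reads in bin E005 in WT and 19, 21 and 21 in gemin2. That bin rose by 3.03 ± 0.409 (adjusted p = 9.44e-07) from 0.62 ± 0.417 to 5.19 ± 0.321 per 100, in a gene that fell by 0.44.

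Ribosomal protein genes held 2 of the 12 named higher bins, each from a different ribosome. RPS5A, a protein of the small cytosolic subunit, had 15, 32 and 29 reads in bin E005 in WT against 196, 199 and 200 in gemin2. The level moved from 0.576 ± 0.168 to 4.24 ± 0.203 per 100 gene reads (log2 change 2.85 ± 0.144, adjusted p = 2.15e-18) while the gene changed by −0.005 (adjusted p = 0.952). Reads from its near-identical paralogue could be split between the loci, so the gene count is uncertain. RPL4 (AT1G07320, chr1:2250022-2250025), a chloroplast ribosomal protein, had 20, 38 and 25 reads in the 4 bp bin E003 in WT and 132, 168 and 155 in gemin2, and rose by 2.46 ± 0.151 (adjusted p = 6.77e-16). Those 4 bp do not form an annotated intron by themselves. Bin E005 of the same gene, an alternative 3′ splice site bin, fell by 0.32 (adjusted p = 8.07e-06).

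Genes of central metabolism and of the chloroplast gave further higher bins. iPGAM2 (AT3G08590), a phosphoglycerate mutase of glycolysis, had 5, 8 and 6 reads in bin E010 in WT and 57, 56 and 91 in gemin2, of which library C was the highest. Its level rose by 3.54 ± 0.263 (adjusted p = 2.32e-13), from 0.222 ± 0.0296 to 2.65 ± 0.803 per 100 gene reads. AT2G04039, a DUF2996 family protein, had 16, 12 and 18 reads in E004 in WT and 51, 40 and 56 in gemin2. Here the gene count fell by 1.06, so the bin rose by 2.60 ± 0.21 relative to the gene (adjusted p = 2.32e-12) and by 1.58 without it. Its intron, printed above, meets a stop codon in frame at base 9.

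The 5 remaining named higher bins lie in genes of different kinds. ERD15 (AT2G41430), a small protein induced by dehydration, had 21, 27 and 14 reads in E006 in WT and 109, 121 and 88 in gemin2, a rise of 2.40 ± 0.163 (adjusted p = 1.53e-14). SNF7.1 (AT4G29160), an ESCRT-III subunit of endosomal sorting, had 8, 10 and 7 against 33, 47 and 49 reads in E004 and rose by 2.36 ± 0.245 (adjusted p = 2.47e-09). No WT library reached a gemin2 library in any of these bins. AT1G10390, a nucleoporin with an autopeptidase domain, had 5, 3 and 4 reads in E014 in WT and 37, 36 and 32 in gemin2, a log2 change of 2.78 ± 0.322 (adjusted p = 3.52e-08). SUO (AT3G48050), which acts in translational repression by miRNAs, had 12, 10 and 4 against 51, 42 and 36 reads in E002 and rose by 2.08 ± 0.272 (adjusted p = 4.52e-07). AT5G04830, of the NTF2 family, had 10, 9 and 14 against 44, 62 and 50 reads in E007 and rose by 2.02 ± 0.224 (adjusted p = 1.31e-08). The 12 named bins passed with each library left out and with DESeq2, and the count of bins passing ranged from 33 to 42 with a library left out.

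**Figure D3:**
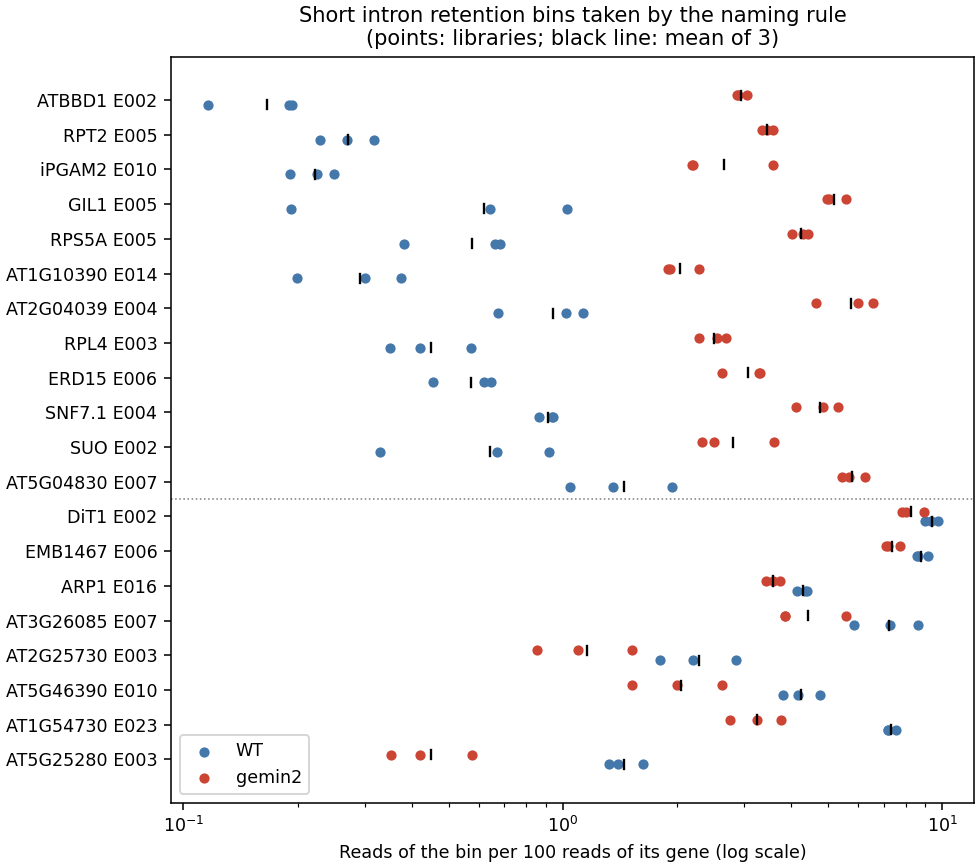
Reads of each named bin per 100 reads of its gene in every library (log axis; blue WT, red gemin2; black line, mean of 3). The 12 higher bins stand above the dotted line with all gemin2 points to the right of the WT points, and the 8 lower bins below it with the order turned.

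Some higher bins outside the naming rule are given here after their values were seen. FD-GOGAT (AT5G04140), the ferredoxin-dependent glutamate synthase of photorespiratory nitrogen recovery, had no read in bin E003 in any WT library and 6, 11 and 13 in gemin2. Its gene had 92198 reads in WT and 96563 in gemin2 in all. The bin entered the test through its gemin2 reads alone, so its adjusted p is not free of that choice. Against 3 counts over the WT group, the level in gemin2 was at least 9.55-fold higher (adjusted p = 7.03e-05). It was small, at 0.0307 ± 0.00972 per 100 gene reads, and its intron has no stop codon in frame. CIPK3, a calcineurin B-like interacting kinase of abscisic acid and calcium signalling, had 2 reads in bin E004 in WT and 26 in gemin2 over the 3 libraries each. The ratio was 10.5 (exact 95% interval 2.62 to 91.0, counting error only), and the call was lost in 5 of 15 alternatives. CIPK3 bins E006 and E007, of several event types, also rose, by 2.63 (adjusted p = 7.3e-05) and 2.52 (adjusted p = 1.36e-05). Over the 18 called loci with another tested bin, 3 of 33 such bins passed (9.09%), the one of RPL4 and these of CIPK3, and none of the 5 that were IR bins.

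Genes of tetrapyrrole synthesis and photosynthetic electron transport had changes that were small or rested on few reads, likewise named after their values were seen. HEME1, a uroporphyrinogen decarboxylase, had 157, 182 and 171 reads in E009 in WT and 249, 311 and 271 in gemin2 and rose by 0.36 ± 0.079 (adjusted p = 0.00241). ACSF, the cyclase of chlorophyll synthesis, rose by 0.08 ± 0.024 (adjusted p = 0.0451), from 11.6 ± 0.145 to 12.2 ± 0.219 per 100 gene reads, and lost this call in 10 of 15 alternatives. PETC, the Rieske protein of the cytochrome b6f complex, had 16, 17 and 8 reads in E003 in WT against 23, 19 and 31 in gemin2 (log2 change 0.95 ± 0.277, adjusted p = 0.0335) and lost the call in 8. In each of these bins the genotypes did not overlap in reads per 100 gene reads.

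Apart from CBP20 E009 and AT1G56190 E003, described further on, the 17 higher bins not yet named ran from 0.80 (AT1G10820 E009) to 2.41 (AT1G15140 E006, in an oxidoreductase gene) on the log2 scale, and all were named after their values were seen. AT3G17100 E003, outside the coding sequence of a DNA-binding transcription factor gene, held 18, 24 and 12 reads in WT against 54, 57 and 62 in gemin2, a change of 1.56 ± 0.195 (adjusted p = 1.95e-07). AT5G55290 E004, in a gene for a subunit of the vacuolar ATPase, had 8, 19 and 10 against 33, 33 and 27 reads and rose by 1.54 ± 0.255 (adjusted p = 4.28e-05). These 2 bins passed in all 15 alternatives. AT4G18740 E004 had 40, 35 and 37 reads in the WT libraries and 48, 54 and 61 in those of gemin2 and rose by 0.82 ± 0.161 (adjusted p = 0.000557), from 12.2 ± 1.52 to 21.5 ± 2.19 per 100 gene reads, with its gene at −0.40 on the log2 scale. Without the gene as reference this bin changed by 0.45 (adjusted p = 0.0795), and its call was lost in 2 of 15 alternatives. Fewer reads lay behind AKRP E003, in a gene for a plastid ankyrin repeat protein, with 12, 6 and 10 against 12, 22 and 17 (adjusted p = 0.0269). MYB4R1 E005 had 2, 2 and 1 against 9, 12 and 13 (2.36 ± 0.565, adjusted p = 0.00666). Like AT1G15140 E006 and AT3G45050 E004, the MYB4R1 bin entered the test through its gemin2 reads alone. The AKRP call was lost in 7 alternatives and that of AT3G45050 E004 in 13.

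The lower bins ranged from a serine-rich protein gene to well-counted metabolic genes. Of the 11, 8 met the naming rule, and DESeq2 called none of these 8. AT5G25280, a serine-rich protein, had 16, 23 and 13 reads in E003 in WT and 7, 5 and 4 in gemin2, a fall from 1.45 ± 0.158 to 0.449 ± 0.114 per 100 gene reads (log2 change −1.67 ± 0.367, adjusted p = 0.00242). AT1G54730 (chr1:20429774-20429853), a transporter of the major facilitator superfamily, had 23, 25 and 19 against 8, 7 and 10 reads in E023 and changed by −1.16 ± 0.304 (adjusted p = 0.0143; 0.0722 without gemin2 library B). The gene fell by 0.37 as well. AT5G46390, an S41 family peptidase, had 21, 28 and 18 reads in E010 in WT and 11, 21 and 15 in gemin2, so the raw counts overlapped. Its gene rose by 0.42, and the bin fell by 1.04 ± 0.26 relative to it (adjusted p = 0.00913), a call that is lost without the gene as reference (log2 change −0.60, adjusted p = 0.154), without WT library B (adjusted p = 0.0702) and without gemin2 library A (adjusted p = 0.0604).

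AT2G25730, with a FYVE zinc finger, had 25, 42 and 27 reads in E003 in WT and 16, 25 and 13 in gemin2 and changed by −0.97 ± 0.238 (adjusted p = 0.00774). It no longer passed without WT library B (adjusted p = 0.116) or gemin2 library C (adjusted p = 0.0866). AT3G26085, a CAAX protease family protein whose gene fell by 0.83, had 53, 50 and 32 against 14, 21 and 15 reads in E007, a change of −0.72 ± 0.219 (adjusted p = 0.0488) that was lost in 9 of 15 alternatives. The remaining named bins were well counted and changed little. ARP1 (AT1G43170), a ribosomal protein, had 393, 488 and 461 reads in E016 in WT and 353, 376 and 370 in gemin2 (log2 change −0.26 ± 0.056, adjusted p = 0.00171). EMB1467 (chr5:14900349-14900434), a subunit of mitochondrial complex I, changed by −0.26 ± 0.0736 in E006 (adjusted p = 0.0298; −0.10 and adjusted p = 0.595 without the gene as reference). The EMB1467 call was lost in 8 of 15 alternatives, among them the fits without WT library A, B or C or gemin2 library A or C (adjusted p from 0.0511 to 0.147). DiT1, the plastid 2-oxoglutarate and malate translocator, fell by 0.18 ± 0.0464 in E002 (adjusted p = 0.0133), from 9.36 ± 0.349 to 8.26 ± 0.607 per 100 gene reads. The DiT1 bin no longer passed without WT library A (adjusted p = 0.116), gemin2 library A (adjusted p = 0.0664) or gemin2 library C (adjusted p = 0.191). The count of lower bins was 6 without WT library B, 7 without gemin2 library A and 5 without gemin2 library C.

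RSH1 is the lower bin with the largest change and is named after its value was seen. RSH1 (AT4G02260), a RelA/SpoT homolog of guanosine tetraphosphate metabolism in plastids, had 10, 9 and 10 reads in E024 in WT and 0, 0 and 2 in gemin2. The level in gemin2 was 0.0636 times that in WT (29 against 2 reads, exact 95% interval 0.00735 to 0.251, counting error only), with the adjusted p at 0.000571, and the gene changed by −0.0021 (adjusted p = 0.978). Its intron, printed above, meets a stop codon in frame at base 33. The RSH1 bin entered the test through its WT reads alone and was also the lower bin that DESeq2 called. ABF3 and AtbZIP63, bZIP factors of abscisic acid and energy signalling, fell in bins E007 (−1.80, adjusted p = 0.0421) and E002 (−2.11, adjusted p = 0.00841) of 5.5 and 6.17 mean reads, while their genes rose by 0.53 and 0.40. The ABF3 call was lost in 10 of 15 alternatives, among them the fit without the gene as reference (adjusted p = 0.134), and the AtbZIP63 call in 5.

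Host genes were tested on their own counts. Of the 36 host genes of higher bins, 19 were lower in gemin2 (52.8%), 4 higher and 13 not called, with a median log2 change of −0.15 and a range from −1.06 to 0.31. Across all tested genes, 36.7% were called, 17.8% higher and 18.9% lower. For the tested bins that were not called, 24.5% of bins lay in genes that were lower and 22.1% in genes that were higher. The gene count is the reference of the bin change, so the direction of host and bin are not independent measures. Without the gene as reference, 28 of the 36 higher bins and 8 of the 11 lower bins were also called in the same direction, and bin E003 of AT1G56190, a phosphoglycerate kinase, changed sign (0.29 relative to the gene, −0.26 without it). Genes of the 11 lower bins were higher in 4 cases, lower in 3 and not called in 4.

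**Figure D4:**
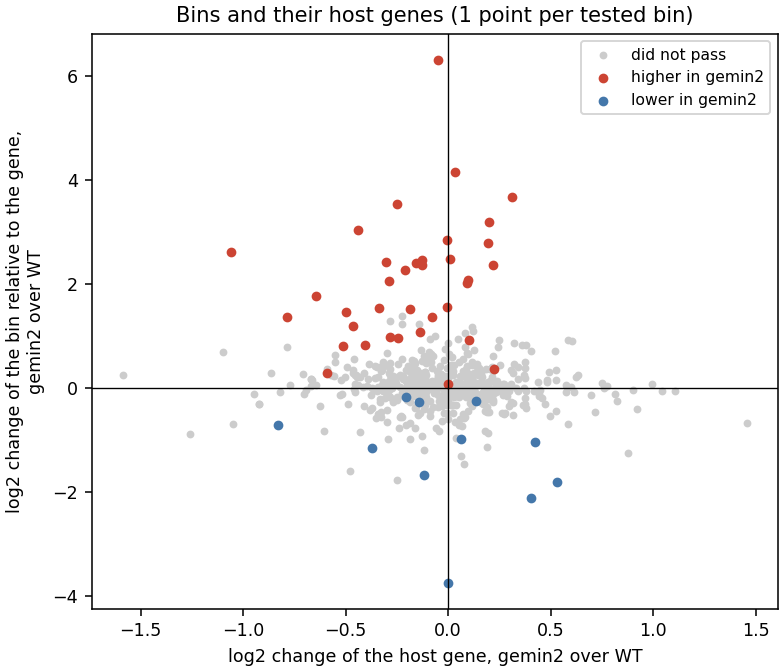
Log2 change of each tested short intron retention bin relative to its gene against the log2 change of the gene, both gemin2 over WT; red bins were higher and blue bins lower at an adjusted p of 0.05. Host genes of the red bins span −1.06 to 0.31 and 19 of the 36 were called lower; the gene count enters each axis.

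The sequence GTAAG at the intron start, a feature the choice of bins did not use, was counted with no test between groups. The match was read on the gene's strand at the first 5 intron bases alone. It was present in 9 of 35 annotated introns among the higher bins (25.7%), in 1 of 11 among the lower ones (9.09%), in 7.80% of the tested introns not called and in 12.3% of the introns of all 1193 bins. ATBBD1, iPGAM2, ERD15 and CBP20, printed above, are among the 9, and AT3G26085 is the lower one. RPS5A with GTGATC, AT1G10390 with GTTCCA and AT5G04830 with GTTCGT are higher bins at introns without it. Other measures of the 5′ splice site did not all go the same way. G at intron base 5 was found in 51.4% of higher, 63.6% of lower and 38.0% of uncalled introns. The last exon base was G in 77.1%, 54.5% and 66.3%. Median matches to the splice site consensus, of 9 bases, were 6, 6 and 5. Higher bins were thus not set apart from lower ones by every measure. Median GC content was 37.5% in higher, 32.1% in lower and 37.2% in uncalled bins, and median widths were 82, 86 and 80 bp.

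All 35 higher and 11 lower bins that are annotated introns begin with GT and end with AG, as do 1072 of the 1107 annotated introns among all bins. In position, 15 of the 36 higher bins lie outside the coding sequence (41.7%), as do 3 of the 11 lower bins (27.3%). The share was 28.8% of the tested bins not called and 20.1% of all short bins. Another 15 higher bins (41.7%) and 6 lower bins (54.5%) lie between coding exons, beside 54.3% of tested bins not called and 66.1% of all short bins. Of those higher and lower bins, 10 of 15 and 3 of 6 hold a stop codon in frame, against 139 of 315 (44.1%) among tested bins not called and 453 of 789 (57.4%) among all short bins between coding exons. The called bins lie on every nuclear chromosome, with 11 of 171 tested bins on chromosome 1, 5 of 100 on 2, 12 of 118 on 3, 7 of 100 on 4 and 12 of 138 on 5.

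Short bins were also looked up in lists of splicing, clock and flowering genes. Such a bin was held by 5 of 31 clock genes and 3 of 22 flowering genes. It was held by 1 of 20 SR splicing regulators and 1 of 30 spliceosome and snRNP genes. The share over all genes was not counted, so these counts are not read as few or many. Among 13 other RNA-binding proteins, CBP20, a subunit of the nuclear cap-binding complex with roles in splicing and miRNA processing, had 2, 3 and 2 reads in E009 in WT and 14, 12 and 18 in gemin2. That bin rose by 2.47 ± 0.482 (adjusted p = 0.000547), from 0.489 ± 0.0604 to 2.88 ± 0.756 per 100 gene reads, and was the only bin of any list that passed. GRP7, a glycine-rich RNA-binding protein under clock control, was at 18.9 ± 1.01 in WT and 20.1 ± 1.15 in gemin2 in E002 (adjusted p = 0.228). Of 20 SR splicing regulators, SCL33 had a short bin, E010, with 95, 107 and 112 against 90, 81 and 91 reads (log2 change −0.01 ± 0.126, adjusted p = 0.989). Of 30 spliceosome and snRNP genes, the helicase gene BRR2A had one, E002, at −0.20 ± 0.113 (adjusted p = 0.469). None of 4 nonsense-mediated decay genes held such a bin.

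Among 31 clock genes, 3 short bins were tested and none passed, with TIC E013 at the smallest p (−0.18 ± 0.0796, adjusted p = 0.275); its genotypes did not overlap. Among 22 flowering genes the 3 tested bins did not pass either. FPA, an RNA-binding regulator of 3′ end formation and flowering, had 12, 11 and 13 reads in E004 in WT and 4, 7 and 5 in gemin2 (−0.98 ± 0.412, adjusted p = 0.237), and without the gene as reference it passed (−1.24, adjusted p = 0.0417). Among 56 photosynthesis genes, 6 bins of 4 loci were tested and none passed, while PETC, described above, is not on that list. The changes of these 6 bins ran from −0.34 in LHCA3 E007 (adjusted p = 0.288) to 0.24 in LHCB4.2 E003. The medians over the tested bins of the lists were −0.04 for clock, 0.21 for flowering and −0.10 for photosynthesis genes, beside −0.0021 over all tested bins.

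Highly counted short bins gave narrow limits on the change. The bin with the most reads, E006 of AT5G60390, held 5.77% of all reads in the 1193 bins and did not pass (log2 change −0.03, adjusted p = 0.604). AT2G26500, a cytochrome b6f subunit, was at 43.8 ± 0.823 reads per 100 gene reads in WT and 44.3 ± 0.517 in gemin2 (0.01 ± 0.0243, adjusted p = 0.898). FBA1 E003 changed by −0.02 ± 0.0284 and TUA6 E002, of an alpha-tubulin gene, by −0.04 ± 0.03, neither past the threshold. In E002 of ROC3, a cyclophilin, levels were 27.1 ± 0.593 and 27.7 ± 0.608.

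The authors' deposited table of altered events lists 321 bins, of which 58 are short IR bins, 42 higher and 16 lower in gemin2-1. Of the 47 bins that passed here, 33 stand in the authors' deposited table (70.2% of those called and 56.9% of those listed), all with the same direction, and 51 of the 58 listed bins were tested here. The log2 splicing index ratio in the authors' deposited table is 4.16 for ATBBD1 E002 and 3.67 for RPT2 E005. FPA E004, which did not pass here, is among the listed bins with a ratio of −1.01. The listing was made from the same counts and is not an independent measurement.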

How the data were processed

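RNA-seq libraries of 3 WT and 3 gemin2 samples were analysed from whole-number counts of reads per gene and per splicing bin, deposited by the authors without normalization. The submitters' processing notes name the TAIR10 build with TopHat2 2.0.9, edgeR 3.4.2 and R 3.0.2, while the counting tool, its strand setting and its rule for reads with several positions were not given in the sources used here. The authors' deposited table gives log2 ratios and p-values (as false discovery rates) of their own comparison. Its values were copied and not recomputed. The members and gene lists were chosen with earlier results of these data known.

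Bins were fitted with edgeR 4.0.16 (R 4.3.3, glmQLFit and glmQLFTest), with the log of the same locus's gene count in the same library as offset. Bins needed to pass filterByExpr with a minimum count of 5 and to lie in a gene that passed a minimum of 10 with a mean of at least 20 reads. All 4649 tested bins of every type shared the fit and the two-sided Benjamini-Hochberg adjustment, with 0.05 as threshold. Genes were tested on 20762 loci with TMM scaling. Errors of log2 changes are SE, the absolute log2 change over the square root of F. Fold bounds against a group at 0 use 3 counts over the group, and ratios of few reads have exact 95% intervals; both cover counting error only. The scripts were tested on simulated counts for the 4649 bins, with 50 bins changed at each size. At log2 changes of 2 and −2, 50 and 44 of 50 were recovered, and at 1 and −1, 37 and 28. Of 4449 unchanged bins, 7 were called. Falls were thus found less often than rises of the same size. Gene starts, frames and sequences came from RefSeq TAIR10.1, whose nuclear coordinates follow TAIR10.

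The named bins are the 12 higher and 12 lower ones with the largest absolute change among those past the threshold whose mean was 10 reads or more and whose genotypes did not overlap (8 lower bins qualified), and in each list up to 4 that passed or else the bin with the smallest p. Alternatives were DESeq2 1.42.0, other offsets and filters, a robust fit, a block for column letters, leaving out overlapping loci and leaving out each library. A bin length that adds the read length was not run, since the read length is not given in the sources used here.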

Additional observations from a re-analysis of the deposited data

How the results depend on the processing

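The count of short IR bins past the threshold (47, with 36 higher and 11 lower) moved by over 1.5 times under 3 alternatives. DESeq2 called 19, of which 18 were higher and 1 lower, all among the 47; 56 bins had an unadjusted p under 0.05 by DESeq2 and 103 by edgeR. With no gene offset 94 passed, 63 higher and 31 lower, and 36 of the 47 were among them. A bin minimum count of 20 left 327 bins in the test and 26 passing, 20 higher and 6 lower, with 19 of the 47 no longer tested. With the bin's own reads taken out of the gene count 40 passed, with the offset recentred 45, with no filter on bin counts 52, with a robust fit 48 and without overlapping loci 46. Leaving out 1 library gave 33 to 42 in all, 27 to 32 higher and 5 to 10 lower, with 26 bins called in every such fit (23 higher and 3 lower). The median log2 change stayed between 0.019 and 0.044 with a library left out. Over all 15 alternatives 13 bins passed each time, all higher, among them 11 of the 12 named higher bins; GIL1 was not tested at the minimum count of 20. Directions turned for SCL33 E010 (0.107 without WT library C and 0.0655 without gemin2 library B, in a range from −0.0936 to 0.107 with a library left out) and, with no gene offset, for TIC E013 (0.0171) and BRR2A E002 (0.0253), none of which passed in any of these fits; the cause was not tested. The fitted change of RSH1 E024, with 2 gemin2 reads, ran from −6.34 to −3.20 with a library left out. With the column letter as a replicate block 40 bins passed, 31 higher and 9 lower, all among the 47. Deviations of same-letter libraries correlated at 0.0475 (A), 0.0492 (B) and 0.0173 (C). In each case this was the highest of that library's correlations with the other genotype, though all were under 0.1. Whether libraries of the same letter were handled together is not stated and was not tested. The planned bin length of width plus a read length was not run. Depth limits the low bins: 13 of the 47 had a mean under 10 reads.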
